A study of Mus musculus with 36 samples.

Results

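The comparison set the livers of untreated SMJ mice against those of untreated SJL, DBA and C57 mice. Its members were the 3 arrays whose titles place an SMJ mouse at 0 h and the 9 arrays of the other strains at 0 h, 12 of the 36 arrays in the series, with 1 mouse per array. All 4 strains are inbred lines of mouse, and none of these 12 mice had received acetaminophen. The other 24 mice had been given 1 injection of 300 mg/kg acetaminophen into the abdomen and were sampled at 3 h or 6 h, 3 mice per strain and time. The study called SJL resistant and the other 3 strains sensitive to liver injury by the drug. Mice were kept with free food and water and fasted for more than 16 h before exposure, and the labels do not say whether the 0 h mice had been fasted. Age and sex are not given in the sources used here. The question put to these arrays was what sets the SMJ liver apart before any drug is given.

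Strain differences in liver gene expression reflect inherited variants that act on the gene itself or through other genes, together with the state of each animal at sampling. The liver metabolizes drugs with cytochrome P450 enzymes, couples the products to glucuronic acid, sulfate or glutathione, makes bile acids from cholesterol, and secretes most plasma proteins. Many of its P450, glucuronosyltransferase and urinary protein genes stand in clusters of close relatives, and such genes often differ between inbred strains. A microarray probe is a short stretch of DNA of fixed sequence, so a strain that carries a variant under the probe can give a low signal without a low transcript level; a second probe set for the same gene samples another stretch.

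Of 13802 genes tested, 612 were higher in SMJ than in the equal-weight mean of the other 3 strains and 636 were lower (limma, Benjamini-Hochberg adjusted p under 0.05), that is 4.43% and 4.61% of the genes and 1248, or 9.04%, in either direction. These shares are the measure for each count of genes called at 0 h in a gene list below. A count near them is no result about the list. The difference is given throughout as log2 of the signal plus an offset of 2.77, with its standard error, and 1 unit is a 2-fold difference. A gene could be called because SMJ stood apart from every other strain, or because 1 other strain was extreme. All 3 SMJ arrays lay above the other 9 for 451 genes, 3.27% of those tested, and below them for 422 genes, 3.06%. Both conditions held for 312 genes higher in SMJ (2.26%) and 313 lower (2.27%). A difference of at least 2-fold was called for 128 genes higher (0.927%) and 217 lower (1.57%), and one of at least 4-fold for 26 higher (0.188%) and 47 lower (0.341%). The p-values rest on the spread among the 3 mice of a group, pooled for each gene over all 12 groups, including mice given acetaminophen. Fitted on the 12 arrays at 0 h alone, 978 genes were called, of which 824 were among the 1248.

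**Figure D1:**
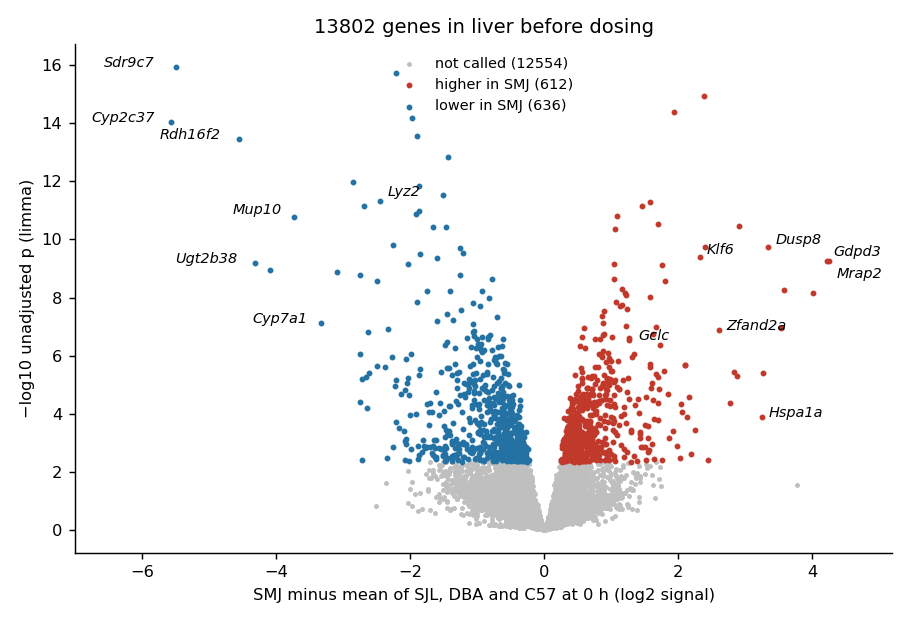
Each point is 1 of 13802 genes, with the log2 difference of SMJ from the mean of SJL, DBA and C57 at 0 h on the horizontal axis and minus log10 of the unadjusted limma p on the vertical axis. The 612 genes higher in SMJ and the 636 lower are coloured, and the lower side reaches further out, to -5.57 for Cyp2c37, than the higher side, to 4.26 for Mrap2.

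The tissue label fitted the markers. The 9 tested hepatocyte markers summed to signals of 111011 to 122994 in the SMJ livers and 102580 to 166668 in the others, and none was called. Alb, serum albumin, gave 13720, 13298 and 13307 in SMJ against 10884 to 20847. Signals correlated at 0.946 to 0.962 between SMJ arrays, at 0.946 to 0.956 within each of the other strains, and at 0.908 to 0.942 between SMJ and other strains. As a measure of RNA integrity, the ratio of 3′ to 5′ actin signal averaged 1.57 in SMJ and 1.64 to 1.77 in the other strains. Pancreas markers, which reach a liver sample with neighbouring tissue, summed to 1950 to 24488 in SMJ and 328 to 85910 in the others. Muscle markers summed to 43.0 to 2844 in SMJ and 34.1 to 1217 in the others, and none of the 7 pancreas and 4 muscle markers tested was called. The median difference of the muscle markers was 1.04, and -0.16 without SMJ mouse 56. That of the pancreas markers was -0.56, and 0.60 without that mouse. The part of neighbouring tissue in the other results was not tested.

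One SMJ array stood apart from the other 2. Over the called genes, the array of mouse 56 lay a median of 0.221 log2 from the mean of the other 2 SMJ arrays, against 0.143 for mouse 57 and 0.178 for mouse 58, and 73 genes of mouse 56 lay more than 1 log2 away, against 45 and 47. These distances were not taken for the other strains. The gap between mouse 56 and the other 2 SMJ mice was widest among stress response genes described below. Atf3, for example, read 953 in mouse 56 and 98.2 and 141 in mice 57 and 58. Without mouse 56, 461 genes were called higher and 510 lower, and 801 of the original calls remained. Without mouse 57 the counts were 316 and 381, and without mouse 58 they were 316 and 376, which are lower still. Results for the stress genes are therefore given with and without mouse 56. Single arrays are named by strain and mouse number, so that SMJ56 is mouse 56.

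Among the named genes, the 4 with the largest deficits in SMJ were Cyp2c37, Sdr9c7, Rdh16f2 and Ugt2b38. Cyp2c37, a P450 that oxidizes arachidonic acid, read 3.72, 28.0 and 26.7 in SMJ, and 28.8 at the lowest, 3486 at the median and 5756 at the highest in the other 9 livers. The low readings were shared with SJL, whose 3 arrays averaged 45.7 ± 15.9 (SD, n = 3), while DBA averaged 4809 and C57 2991. The difference from the mean of the other strains was -5.57 ± 0.35 (adjusted p = 2.09e-11, limma); it was -8.04 against DBA, -7.30 against C57 and -1.37 against SJL (adjusted p = 0.043). Cyp2c50 read 900, 1156 and 941 against 1571 to 5772 and was lower by 1.75 ± 0.21 on the log2 scale (adjusted p = 1.61e-06). Cyp2c54 read 329, 638 and 523 against 896 to 3554 (-1.99 ± 0.31, adjusted p = 9.83e-05). Both of these lay below all 9 other arrays, and both were lower than in each other strain taken alone. The Cyp2c genes are close relatives, and binding of 1 probe set to several of them was not tested.

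Sdr9c7, a short-chain dehydrogenase that acts on retinoids, was near the floor of the array in SMJ. It read 3.97, 6.79 and 7.19 in SMJ, and 96.6, 330 and 1051 at the lowest, median and highest of the other 9. The difference was -5.49 ± 0.29 (adjusted p = 1.23e-12), and a second probe set gave -4.96 (adjusted p = 4.96e-09). Rdh16f2, a retinol dehydrogenase family member, read 18.7, 28.3 and 36.5 against 502 to 877, and was lower by similar amounts against SJL (-4.53), DBA (-4.43) and C57 (-4.69). Hsd17b6, a hydroxysteroid dehydrogenase that also oxidizes retinol, read 221, 185 and 534 against 641 to 4139 (-2.69 ± 0.23, adjusted p = 6.12e-09). Its second probe set differed by 0.28 with an adjusted p of 0.657, so the deficit was seen in only 1 of its 2 probe sets.

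Ugt2b38, a glucuronosyltransferase that is male-biased in mouse liver, read 10.5, 12.8 and 14.4 in SMJ against 133 to 610. It was lower by 4.31 ± 0.46 on the log2 scale (adjusted p = 2.56e-07), and it was the only gene of 10 tested male-biased liver genes to be called. Mup10, a major urinary protein that carries pheromones, read 64.3, 176.8 and 74.6 against 226.4 to 3085 (-3.73 ± 0.33, adjusted p = 1.2e-08). C57 had the lowest Mup10 of the other strains, with a mean of 465 ± 213 (SD, n = 3) against 2232 ± 398 in SJL and 2370 ± 640 in DBA. Nat8, an acetyltransferase that completes mercapturic acids, read 33.1, 22.4 and 23.4 against 121 to 308, a difference of -2.63 ± 0.37 (adjusted p = 2.56e-05). Mup3 and Mup5 were not called (-0.01 ± 0.23 and -0.13 ± 0.24), and close relatives of Ugt2b38 and Mup10 were not told apart here. None of the 3 tested sex chromosome genes was called, with Kdm5d at 0.09 ± 0.12.

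Large deficits also stood in genes of other kinds: Miip (-2.85), Septin10 (-2.74), A2ml1 (-2.72), Bbs10 (-2.65), Tmem71 (-2.49) and Evi2a (-2.37). These 6 genes, like the others named for the size of their difference, were chosen with all SMJ arrays outside the range of the other 9.

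The P450 genes that turn acetaminophen into its reactive product showed no called difference. Cyp2e1, the main one, read 15552, 13574 and 13500 in SMJ against 11964 to 19792, a difference of -0.12 ± 0.17 (adjusted p = 0.752). Cyp1a2 differed by -0.02 ± 0.25 and Cyp3a11 by -0.14 ± 0.12 (adjusted p = 0.978 and 0.535). Among 30 tested drug-metabolizing P450 genes, 5 were called higher and 4 lower, with a median difference of -0.06, against a median of -0.01 over all genes. The 5 higher were Cyp2c23, Cyp3a13, Cyp2c39, Cyp2b10 and Cyp2c70. Cyp2b10 (2.02, adjusted p = 0.0425) lost its call when any 1 of 9 arrays was left out, and Cyp2c70 (0.84, adjusted p = 0.0458) when any 1 of 10 was. The 5 higher genes then fell to 3 without any 1 of SJL1, SJL4, SMJ56, SMJ58, DBA113, DBA114, C57180 and C57181. Without mouse 57 there were 2, with Cyp2c39 at an adjusted p of 0.0544.

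For 3 of the higher P450 genes, 1 other strain was not called different from SMJ. Cyp2c23 read 4068, 4187 and 4088 in SMJ, 199 at the lowest and 4828 at the highest elsewhere. Its difference of 1.59 ± 0.13 (adjusted p = 5.23e-09) came from DBA (4.15) and C57 (0.79), while SMJ and SJL differed by -0.19 (adjusted p = 0.54). Cyp3a13 was higher than SJL by 2.11 and DBA by 2.58, and stood at 0.05 from C57 (adjusted p = 0.94). Cyp2c39 was higher than DBA (2.33) and C57 (4.25) and not called against SJL (-0.17, adjusted p = 0.91). Cyp2r1, the remaining lower gene of the list and a vitamin D hydroxylase, was lower by 1.09 ± 0.32 on the log2 scale (adjusted p = 0.0307), and by 0.69 without mouse 56 (adjusted p = 0.272). Without mouse 56 the list held 3 higher and 3 lower genes.

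**Figure D2:**
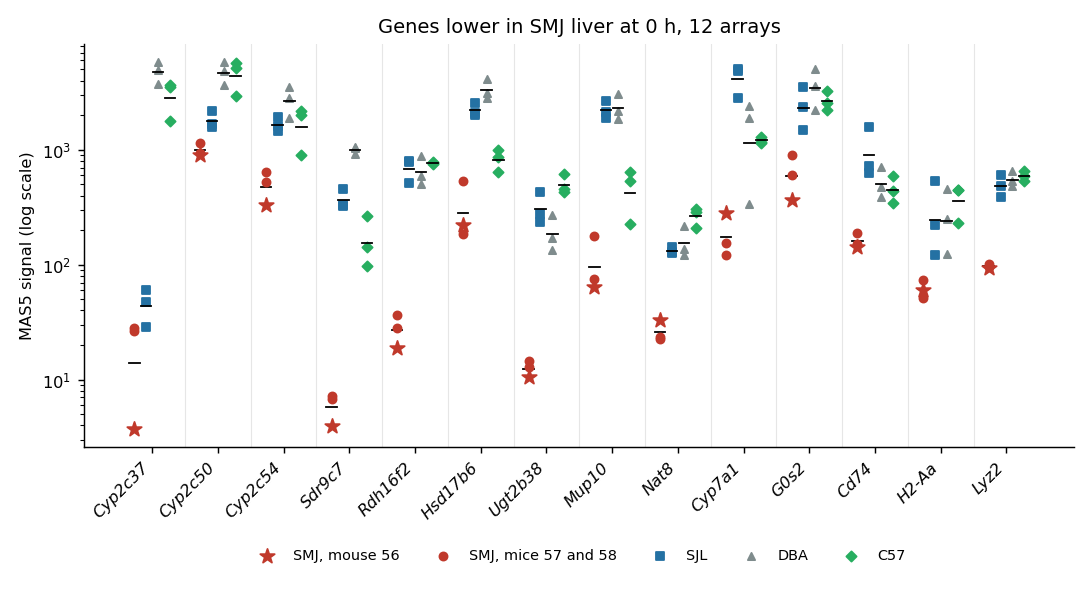
MAS5 signal on a log axis of 14 genes lower in SMJ, with 1 point per array of the 12 livers at 0 h and a bar at each strain's geometric mean; the star is SMJ mouse 56. The 3 SMJ points lie below all others for each gene shown, which was a condition of choice for the genes named for size. The SJL points of Cyp2c37 lie close above them.

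Calls among conjugation and hydrolysis genes are set against 4.43% of all genes called higher and 4.61% called lower. Of 20 glutathione transferases, none was called higher and 2 were lower: Gstm6 read 101.25, 124.9 and 110.5 in SMJ against 185 to 483 (-1.43 ± 0.30, adjusted p = 0.00199), and Gstt2 was lower by 0.60 ± 0.13 on the log2 scale (adjusted p = 0.00217). Gstp1, an abundant transferase linked to acetaminophen sensitivity in mice, read 13791, 12378 and 13347 against 11016 to 16897 (0.00 ± 0.12). Of 20 glucuronidation and sulfation genes, 1 was higher and 1 lower, Ugdh (0.41 ± 0.11, adjusted p = 0.0131) and Ugt2b38. Ugdh makes the glucuronic acid donor, and its call was lost without mouse 57 or mouse 58. Of 10 carboxylesterase genes, Aadac, an arylacetamide deacetylase that hydrolyses drugs, read 2149, 2112 and 2060 against 2975 to 4737 (-0.84 ± 0.14, adjusted p = 0.000184). Ces1d was also lower (-0.51 ± 0.15, adjusted p = 0.028), and without mouse 56 or mouse 57 it was not called (-0.47, adjusted p = 0.12, without mouse 56). The median of the 10 was -0.44.

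Glutathione synthesis and the targets of NRF2, the transcription factor that answers oxidative stress, were raised in part. Gclc, the catalytic subunit of the enzyme that limits glutathione synthesis, read 4918, 3290 and 3718 in SMJ, all above the others at 771, 1685 and 2909 (lowest, median and highest). It was higher by 1.27 ± 0.19 (adjusted p = 4.04e-05), by 1.11 without mouse 56 (adjusted p = 0.00159), and by 1.34 in a second probe set (adjusted p = 9.14e-05). Gclm, its modifier subunit, differed by -0.07 ± 0.09 (adjusted p = 0.724). Srxn1, sulfiredoxin, read 1560, 640 and 559 against 160 to 443 and was higher by 1.59 ± 0.26 (adjusted p = 0.000226; 1.13 without mouse 56). Txnrd1, thioredoxin reductase, read 2226, 1786 and 1656 against 930 to 1220 (0.72 ± 0.14, adjusted p = 0.00102), and its second probe set gave 0.99 (adjusted p = 0.000133). For each of these 3 called genes every SMJ array lay above every other array.

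Hmox1, heme oxygenase, was less uniform. It read 5481 in mouse 56, and 447 and 561 in mice 57 and 58, against 140 to 468 in the other strains. The difference was 2.04 ± 0.42 (adjusted p = 0.00184), and 0.89 without mouse 56 (adjusted p = 0.022). Fitted on the 12 arrays at 0 h alone, it was not called (adjusted p = 0.0839). Nqo1, the quinone reductase often used as an NRF2 readout, read 63.8, 97.2 and 44.8 against 27.9 to 109 and was not called (-0.16 ± 0.25). In all, 5 of 17 NRF2 and redox genes were higher, the fifth being Osgin1 (0.93, adjusted p = 0.0196; 0.48 and 0.286 without mouse 56), and 2 were lower, Abcc2 and Sod1. The list's median difference was -0.03, against -0.01 for all genes. Sod1 (-0.26, adjusted p = 0.0497) lost its call when any 1 of 8 arrays was left out (SJL2, SJL4, SMJ57, SMJ58, DBA113, DBA115, C57181 and C57182), which leaves 1 lower gene. Abcc2 lost its call without mouse 58 (adjusted p = 0.0763), when the list held 0 lower genes.

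Glutathione reductase, Gsr, was also higher (0.47 ± 0.10, adjusted p = 0.00411), in its first probe set only; the second gave -0.13 (adjusted p = 0.608). Of 13 transsulfuration and glutathione genes, Gclc and Gsr were the 2 called, with a median of -0.01. In the methionine cycle, 1 of 13 genes was higher and 2 were lower, against 4.43% and 4.61% of all genes. Mtrr, methionine synthase reductase, read 158.1, 136.7 and 140.9 against 64.9 to 116 (0.67 ± 0.16, adjusted p = 0.00638). Gnmt, which consumes S-adenosylmethionine, read 8330, 6572 and 6512 against 8508 to 17356 (-0.63 ± 0.14, adjusted p = 0.00366). Chdh, choline dehydrogenase, was lower by 0.51 ± 0.13 on the log2 scale (adjusted p = 0.0161) and not called without mouse 56 (adjusted p = 0.139). Bhmt and Bhmt2, which remethylate homocysteine, were not called, at -0.29 ± 0.13 and -0.09 ± 0.16 (adjusted p = 0.162 and 0.814).

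Stress response genes were high in SMJ, and most of all in mouse 56. Zfand2a, a zinc finger protein induced by arsenite and heat, read 4746, 860 and 930 in SMJ against 163, 250 and 476 at the lowest, median and highest elsewhere. All 3 SMJ arrays lay above the others, the difference was 2.62 ± 0.37 (adjusted p = 2.32e-05), and it was 1.81 without mouse 56 (adjusted p = 0.000471). Hspa1a, an inducible HSP70 chaperone, read 649, 156 and 130 against 7.45 to 40.1 (3.25 ± 0.73, adjusted p = 0.00415), and without mouse 56 it was 2.53 and not called (adjusted p = 0.0634). Hsp90aa1, the inducible cytosolic HSP90, read 4207, 3724 and 4150 against 934 to 2953, and was higher by 1.25 ± 0.22 (adjusted p = 0.000411). Its SMJ arrays were alike, and the difference without mouse 56 was 1.21 (adjusted p = 0.00466).

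Of 12 heat shock genes tested, 6 were higher and none lower: Hsp90aa1, Hspa1a, Hspb1, Dnajb1, Hsph1 and Hspa1b. The median difference of the 12 was 1.06, and 5 lay above all other arrays in every SMJ mouse. Without mouse 56, 3 were called, Hsp90aa1, Hspb1 and Hsph1, with a median of 0.79. Dnajb1, a co-chaperone of HSP70, read 2013, 687 and 908 against 307 to 487 (1.51 ± 0.36, adjusted p = 0.00672; 1.06 and 0.108 without mouse 56). Hspb1, a small heat shock protein, read 1329, 1914 and 2083 against 194 to 2213. It was higher than in SJL (2.94) and DBA (1.77), and was at 0.21 from C57 (adjusted p = 0.85). Hspa1b was higher by 1.98 ± 0.55 (adjusted p = 0.0224), and by 1.48 without mouse 56 (adjusted p = 0.178) and not called without mouse 58. Hspa1a and Hspa1b are nearly identical in sequence, so their probe sets may share transcripts. The chaperones Hspa5 of the endoplasmic reticulum and Hspd1 of mitochondria were at 0.13 ± 0.17 and -0.02 ± 0.10 and were not called.

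Heat shock factor binds repeats of GAA and its complement TTC spaced by 2 bases. The 250 bases before the RefSeq start of each gene (GRCm38.p6, the C57 reference genome and not the SMJ sequence) were searched for 3 adjacent repeats, GAANNTTCNNGAA or TTCNNGAANNTTC, and for 2, GAANNTTC or TTCNNGAA; each pair covers both strands. The form with 3 repeats was in 0.4% of 27025 promoters and in none of the 5 called heat shock genes that had a promoter in the table. The form with 2 repeats was in 12.9% of all promoters and in 4 of those 5, Hspa1a, Hspa1b, Hspb1 and Hsph1, and also in Zfand2a. Of the 10 heat shock genes of the list with a promoter in the table, 6 held 2 repeats, including Dnaja1 and Hspe1, which were not called, and Hspe1 alone held 3. A match of this kind says only that the letters are present. The promoters of the 2 genes with the largest differences among these and of Hspb1, which has 2 matches, are shown with the matches in capitals, 5′ to 3′.
Hspa1a, chr17:34972157-34972406, minus strand: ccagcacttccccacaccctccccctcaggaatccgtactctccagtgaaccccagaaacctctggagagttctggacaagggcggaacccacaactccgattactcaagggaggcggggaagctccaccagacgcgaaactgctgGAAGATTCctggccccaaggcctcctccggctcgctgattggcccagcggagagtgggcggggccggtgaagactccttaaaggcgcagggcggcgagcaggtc
Zfand2a, chr5:139484492-139484741, minus strand: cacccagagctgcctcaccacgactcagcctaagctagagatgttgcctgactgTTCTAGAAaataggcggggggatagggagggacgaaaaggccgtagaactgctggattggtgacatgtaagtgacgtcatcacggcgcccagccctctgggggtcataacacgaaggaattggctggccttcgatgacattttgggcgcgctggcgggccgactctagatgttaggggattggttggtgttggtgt
Hspb1, chr5:135887669-135887918, plus strand: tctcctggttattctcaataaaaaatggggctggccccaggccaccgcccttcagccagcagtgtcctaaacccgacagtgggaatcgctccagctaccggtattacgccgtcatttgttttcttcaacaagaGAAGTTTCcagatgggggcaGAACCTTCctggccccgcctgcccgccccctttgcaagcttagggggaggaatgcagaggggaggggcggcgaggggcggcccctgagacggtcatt

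Among immediate early genes, whose transcription responds to a stimulus before new protein is made, 5 of 18 were higher and none lower, with a median of 0.65; without mouse 56 there were 4, and the median fell to 0.03. Klf6, a zinc finger transcription factor, was the most uniform: it read 337, 297 and 280 in SMJ against 47.3, 55.9 and 71.9 at the lowest, median and highest elsewhere. It was higher by 2.32 ± 0.24 (adjusted p = 1.75e-07), by 2.25 without mouse 56, and by nearly equal amounts against SJL (2.35), DBA (2.24) and C57 (2.38). Its second probe set gave 2.39 (adjusted p = 8.18e-09). Atf3, a stress transcription factor, was above all others in each SMJ mouse (2.83 ± 0.49, adjusted p = 0.000308), and at 1.83 without mouse 56 (adjusted p = 0.00967). Jun, a subunit of AP-1, read 5553, 1025 and 953 against 163 to 782 (2.25 ± 0.55, adjusted p = 0.00913), and 1.42 without mouse 56, which ended its call (adjusted p = 0.154).

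For some other members of the list 1 array carried most of the excess. Fos read 2523 in mouse 56 and 76.8 and 79.6 in the other 2 SMJ mice, against 37.4 to 159.3, and Egr1 read 5824, 358 and 422 against 171 to 1290. Neither was called (adjusted p = 0.175 and 0.208). Btg2, an antiproliferative gene, read 1447, 325 and 304 against 44.6 to 699, a difference of 1.67 ± 0.29 (adjusted p = 0.000339) and of 0.94 without mouse 56 (adjusted p = 0.00463). Against C57 alone Btg2 was at 0.05 (adjusted p = 0.96). Myc was at 0.24 against C57 (adjusted p = 0.74) and at 1.20 ± 0.26 against the mean of the 3 strains (adjusted p = 0.00342).

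Dusp6 and Dusp8, phosphatases that switch off MAP kinases, were higher without that gap. Dusp6, which acts on ERK, read 1757, 1130 and 1348 against 79.0 to 510 (2.40 ± 0.24, adjusted p = 9.21e-08; 2.23 without mouse 56). Dusp8, which acts on JNK and p38, read 151, 204 and 201 against 5.23, 11.8 and 69.9 at the lowest, median and highest elsewhere. It was higher by 3.34 ± 0.33 (adjusted p = 9.21e-08), by 2.61 in a second probe set (adjusted p = 9.12e-06) and by 3.48 without mouse 56. Dusp1, a member of both the phosphatase family and the immediate early list, was not called (0.64 ± 0.44). Dusp10 was higher by 0.88 (adjusted p = 0.0301), and its second probe set was at 0.36 (adjusted p = 0.526).

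Other genes with a large excess in SMJ were in none of the lists. Mrap2, an accessory protein of melanocortin receptors, read 415, 393 and 238 in SMJ; the DBA arrays lay between 48.9 and 121, while SJL and C57 lay near the floor, with means of 5.46 and 6.45. It had the largest difference, 4.26 ± 0.45 (adjusted p = 2.24e-07). Gdpd3, a lysophospholipase D, read 451, 382 and 318 against 2.71 to 39.99 (4.22 ± 0.44, adjusted p = 2.24e-07). Elobl, a relative of elongin B, was higher than in SJL (4.13) and C57 (3.88) and was at 0.72 from DBA (adjusted p = 0.19). Tmco2, E2f7, Ect2 and Mcf2l were higher by 3.58, 3.54, 2.87 and 2.77. E2f7, a repressor of the E2F family, and Ect2, an exchange factor of cytokinesis, are active in dividing cells. None of the 4 tested markers of dividing cells was called, with a median of -0.31, and of 0.32 without mouse 56.

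**Figure D3:**
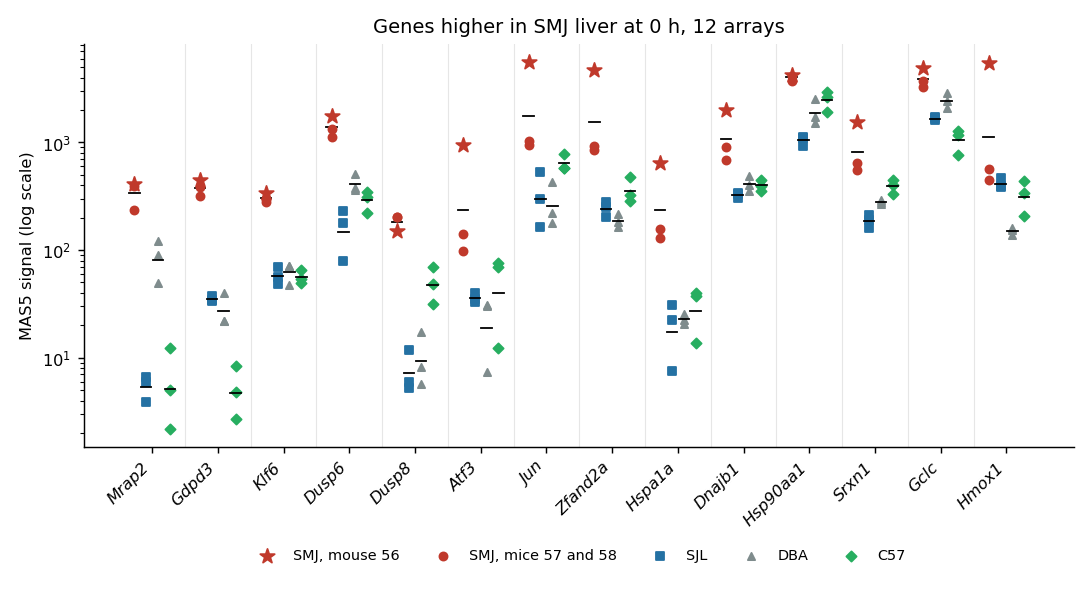
MAS5 signal on a log axis of 14 genes higher in SMJ, with 1 point per array of the 12 livers at 0 h and a bar at each strain's geometric mean. The star, SMJ mouse 56, lies far above the other 2 SMJ points for Atf3, Jun, Zfand2a, Hspa1a and Hmox1 and close to them for Klf6, Gdpd3 and Dusp8.

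Some genes of antigen presentation were lower. Cd74, the invariant chain that escorts MHC class II, read 143, 187 and 153 in SMJ against 346, 591 and 1591 at the lowest, median and highest elsewhere, a difference of -1.86 ± 0.32 (adjusted p = 0.000361). H2-Aa, a class II alpha chain, read 59.9, 73.9 and 51.2 against 122 to 537 (-2.14 ± 0.41, adjusted p = 0.00107), and its second probe set gave -1.43 (adjusted p = 0.00496). Both lay below every other array and below each strain taken alone. Of 10 class II genes, 4 were lower and none higher, the others being H2-Eb1 (-1.38, adjusted p = 0.017) and H2-DMa (-0.89, adjusted p = 0.0495). The median of the 10 was -0.95, and 5 lay below all other arrays. H2-Eb1 lost its call without any 1 of the 3 SMJ arrays (-1.30 and adjusted p = 0.0744 without mouse 56), H2-DMa without any 1 of 10 arrays, and its second probe set differed by 0.66 (adjusted p = 0.576). The list held 2 lower genes without mouse 57 or mouse 58. MHC genes are among the most variable between inbred strains, and the strains' alleles under the probes were not analysed here. The 2 probe sets of H2-Aa have names with _x_ and _s_, so each may bind several transcripts.

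The class I pathway showed the same direction in fewer genes. Tap1, which pumps peptides into the endoplasmic reticulum, read 67.6, 58.5 and 62.1 against 89.9 to 215 (-1.12 ± 0.25, adjusted p = 0.00422). The immunoproteasome subunits Psmb8 (-0.94, adjusted p = 0.0252) and Psmb9 (-1.14, adjusted p = 0.0448) were the other 2 of 13 genes called, all lower, with a median of -0.36. Without mouse 57 or mouse 58, 1 remained called. Psmb8 lost its call without either of these mice, and Psmb9 without any 1 of 8 arrays. B2m, the common light chain, was at -0.22 ± 0.10 and the heavy chain H2-K1 at 0.24 ± 0.11, and neither was called. None of 23 interferon-stimulated genes was called by limma at 0 h, with a median of -0.47 and with Ifi47 closest to the threshold (-1.52 ± 0.51, adjusted p = 0.0598).

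Class II genes are made by macrophages, dendritic cells and B cells, and the list of macrophage markers moved the same way by less. Lyz2, lysozyme of macrophages and neutrophils, is not in that list and was named for the size of its deficit. It read 92.9, 101.9 and 94.9 in SMJ against 385, 534 and 658 at the lowest, median and highest elsewhere. It was lower by 2.45 ± 0.21 on the log2 scale (adjusted p = 5.1e-09), and by 2.28, 2.48 and 2.58 against SJL, DBA and C57. Of 12 Kupffer cell and macrophage markers, 3 were lower and none higher, with a median of -0.33. These were Csf1r (-0.58, adjusted p = 0.00598), Cd5l (-0.68, adjusted p = 0.01) and Adgre1 (-0.47, adjusted p = 0.0469). Without mouse 57 or mouse 58, 1 was left, and Adgre1 lost its call without any 1 of 9 arrays. The summed signal of the 12 was 4619 to 5698 in SMJ and 4873 to 9263 elsewhere. None of 5 B cell markers and 5 T and NK cell markers was called (medians -0.38 and -0.40), and 1 of 8 neutrophil markers was, Ngp (-1.27, adjusted p = 0.0317), which was not called without any 1 of SJL2, SMJ57, SMJ58 and DBA115. Fewer cells of a type and less RNA per cell cannot be told apart in whole liver, and the part of macrophage content in the class II values was not tested.

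Cyp7a1 encodes the enzyme that limits the rate at which bile acids are made, and it was the largest difference in lipid and bile acid metabolism. It read 285, 154 and 121 in SMJ, and 338, 1899 and 5014 at the lowest, median and highest of the other 9. The difference was -3.34 ± 0.45 (adjusted p = 1.45e-05), with -4.53 against SJL, -2.71 against DBA and -2.77 against C57, and a second probe set gave -2.50 (adjusted p = 2.15e-05). Cyp8b1 and Cyp27a1, later enzymes of the pathway, were at -0.17 ± 0.12 and -0.14 ± 0.12. Nr0b2, the repressor of Cyp7a1 that bile acids induce, read 452, 924 and 739 against 330 to 576 and was not called (0.65 ± 0.40, adjusted p = 0.359). Of 19 bile acid genes 3 were lower, against 4.61% of all genes, and none was higher. The other lower genes were the transporters Abcc2 (-0.91, limma adjusted p = 0.00869) and Slco1b2 (-0.60, adjusted p = 0.0107). Slco1b2 lost its call without mouse 57, and its second probe set was at -0.04.

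G0s2, an inhibitor of the lipase that opens lipid droplets, read 366, 608 and 905 against 1484 to 5022 (-2.23 ± 0.41, adjusted p = 0.000651), and all 3 SMJ arrays lay below the rest. Fitm1, a lipid droplet protein, was lower against DBA (-2.38) and C57 (-3.31) and not against SJL (0.59, adjusted p = 0.44). Plin3 (0.66, adjusted p = 0.00689) and Cd36 (0.72, adjusted p = 0.0382) were the higher genes, for 2 higher and 2 lower of 14 in the list. Plin3 lost its call without mouse 57 and Cd36 without any 1 of SJL1, SMJ56, SMJ57, SMJ58, DBA115 and C57181, so that none was higher without mouse 57 and 1 was without the other 5. Pex11a, a PPARA target that divides peroxisomes, read 880.5, 1094 and 1130 against 1562 to 2785 (-0.96 ± 0.15, limma adjusted p = 6.67e-05). Of 27 fatty acid oxidation genes 2 were called, both lower, against 4.61% of all genes lower. The median of the list was -0.01. The other, Decr1 (-0.29, adjusted p = 0.0341), lost its call without any 1 of SJL4, SMJ56, SMJ57, SMJ58, DBA114 and C57182. Cyp4b1, a fatty acid hydroxylase, read 118, 123 and 118 against 220 to 444 (-1.29 ± 0.22, adjusted p = 0.00032). Cyp4a31 (-1.45) and Cyp4f13 (-0.58) were the other 2 lower genes among 9 of the Cyp4 family. Cyp4a14, the strongest PPARA target of the family, was at -0.06 ± 0.21.

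Of 17 cholesterol synthesis genes, 1 had a difference above 0, against 6766 of 13802 over all genes. Of all genes, 4.61% were called lower. Hmgcs1, an early enzyme of the pathway, read 441, 328 and 404 against 645 to 1371 (-1.33 ± 0.41, adjusted p = 0.0389), and Dhcr7, the last enzyme, read 209, 202 and 163 against 264 to 597 (-1.03 ± 0.32, adjusted p = 0.0431). These were the 2 called of 17, both lower, with a median of -0.62, and 4 of the 17 lay below all other arrays. Both calls were lost without any 1 of SMJ56, SMJ57, SMJ58, SJL1, DBA113, DBA114, C57180 and C57181 (adjusted p = 0.0793 and 0.0878 without mouse 56). The list held 1 lower gene without SJL4, C57180 or C57182, 3 without DBA115, and 0 without the others named. Fbp1, an enzyme of glucose production, read 8265, 6829 and 6992 against 9749 to 13481 (-0.64 ± 0.10, limma adjusted p = 0.000112). Of 15 glucose genes 2 were lower, the other being Gys2 (-0.49, adjusted p = 0.0108), which was not called without mouse 57.

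Secreted plasma proteins moved both ways. Orm1, an acute phase glycoprotein, read 4575, 2944 and 2175 against 6067, 7559 and 11190 at the lowest, median and highest elsewhere (-1.30 ± 0.23, adjusted p = 0.000466), by similar amounts against SJL (-1.36), DBA (-1.24) and C57 (-1.30). Itih3 was lower by 0.63 ± 0.12 on the log2 scale (adjusted p = 0.000691). Saa4 was higher by 1.08 ± 0.28 (adjusted p = 0.012), and by 0.72 without mouse 56 (adjusted p = 0.163). In all, 2 of 21 acute phase genes were higher and 5 lower, against 4.43% and 4.61% of all genes. The second higher gene, Crp (0.42, adjusted p = 0.0461), lost its call without any 1 of 11 arrays, all but DBA114, and 0 were higher without mouse 56. The 5 lower genes fell to 2 without any 1 of SMJ57, SMJ58, SJL2, SJL4, DBA113, DBA114 and C57182, and to 3 without C57181. Hamp, hepcidin, one of the 5, spread widely within SMJ, at 7624, 1835 and 483 (-1.88, adjusted p = 0.0428). Of 21 complement genes 3 were lower, C1ra (-0.39), Masp1 (-0.51) and C4bp (-0.57); without mouse 58 there were none, and without C57181 there were 5. Serpina11 read 805, 964 and 963 against 643 to 2812, lower than in SJL (-1.42) and DBA (-1.46) and at 0.39 from C57 (adjusted p = 0.1).

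Clock genes bear on the hour of sampling, and 2 of 18 were called, against 9.04% of all genes. Per2 was higher (1.19 ± 0.34, limma adjusted p = 0.025) and Tef lower (-0.60 ± 0.16, adjusted p = 0.015). Neither was called without any 1 of the SMJ arrays, without SJL4 there were 3 lower, and Dbp (-0.85 ± 0.35) and Nr1d1 (-0.95 ± 0.35) were not called. The part of the hour of sampling in the other results was not tested. Alas2, the erythroid enzyme of heme synthesis, read 123, 119 and 122 against 171 to 914 (-1.85 ± 0.31, adjusted p = 0.000254), while the erythroid genes Hba-a1 and Slc4a1 were at 0.34 ± 0.67 and -0.06 ± 0.50. Pericentral and endothelial markers, with 11 and 9 genes tested, held no called gene.

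A second probe set was used to look for differences bound to 1 probe set. Of 612 genes called higher, 373 had a second probe set that was tested; it had the same sign in 293 (78.6%) and passed the test in the same direction in 109 (29.2%), against 5.45% of second probe sets over all genes that were higher. Of 636 called lower, 302 had one, with the same sign in 234 (77.5%) and a pass in 84 (27.8%), against 4.33%. Either way, 9.79% of all second probe sets passed, and 7.39% of those of genes not called at 0 h. The share was larger for larger differences: with at least 2-fold, 31 of 63 higher (49.2%) and 30 of 78 lower (38.5%) passed, and with at least 4-fold, 7 of 8 higher and 8 of 16 lower. Whether a second probe set that missed was too dim to show a difference was not tested. Second probe sets passed, among others, for Sdr9c7, Cyp7a1, Miip, Klf6, Dusp8, Jun, Zfand2a, Gclc and H2-Aa and did not for Hsd17b6, Bbs10, Evi2a, Gsr, H2-DMa, Psmb8, Csf1r, Cyp4a31, Slco1b2, Decr1, Hmgcs1, Hamp and Tef. Miip, an inhibitor of cell migration, was at -2.85 in the first and -0.94 in the second.

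Hsd17b13, a lipid droplet dehydrogenase of hepatocytes, was called in opposite directions by its 2 probe sets. The first read 8715, 6732 and 6573 in SMJ and 209 to 6987 elsewhere, where SJL alone was low (mean 246 ± 44.7, SD, n = 3), for a difference of 1.76 ± 0.19 (adjusted p = 2.62e-07). The second differed by -1.94 (adjusted p = 0.000234). Such a reversal with a pass on both sides was found for 9 of the 675 called genes with a second probe set. Of the 30 genes with the largest differences, 19 had no second probe set that was tested, among them Mrap2, Gdpd3, Cyp2c37, Rdh16f2, Ugt2b38, Mup10 and Lyz2.

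**Figure D4:**
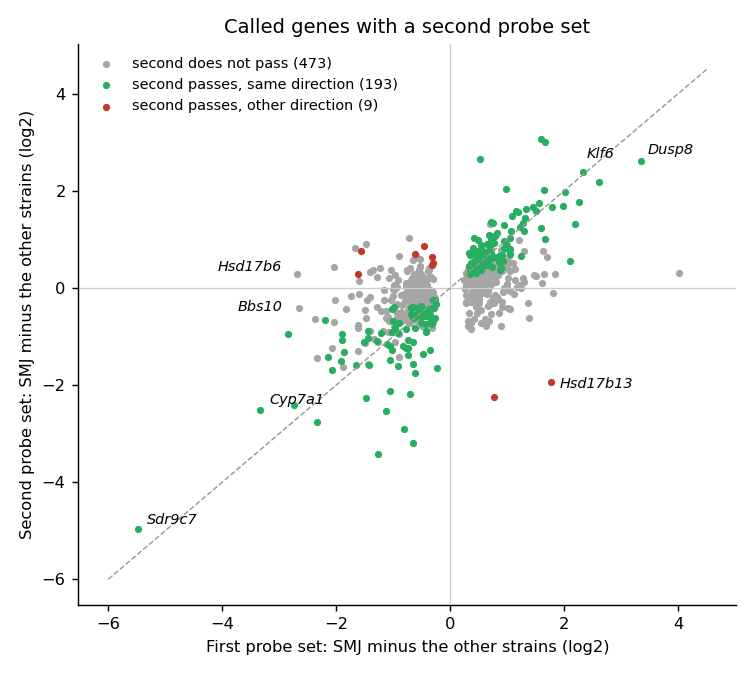
Each point is 1 of 675 genes called at 0 h that has a second probe set, with the log2 difference of SMJ from the other strains in the first probe set on the horizontal axis and in the second on the vertical axis; the dashed line marks equal values. The second probe set passed in the same direction for 193 genes and in the other direction for 9, including Hsd17b13, and Hsd17b6 lies near 0 on the vertical axis.

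Taken 1 strain at a time, SMJ differed from SJL in 1432 genes (10.4%), from DBA in 1229 (8.9%) and from C57 in 1287 (9.32%). These 3 comparisons share the SMJ arrays. Against SJL 679 genes were higher (4.92%) and 753 lower (5.46%), against DBA 643 (4.66%) and 586 (4.25%), and against C57 650 (4.71%) and 637 (4.62%). Against DBA the count was 731 without DBA113, 775 without DBA115 and 765 without SMJ57. Against C57 it was 802 without C57182, 832 without SMJ57 and 767 without SMJ58.

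The mice sampled after acetaminophen were other animals of the same strains, and they give the strain difference again under the drug. Their tests share the spread of each gene with the test at 0 h, so a pass is not independent of the call at 0 h. With each time fitted on its own 12 arrays, 278 of 978 genes called at 0 h passed at 3 h in the same direction. At 3 h, 310 of the 612 genes higher at 0 h (50.7%) passed again in the same direction, and 325 of the 636 lower (51.1%); over all genes 4.46% were higher and 4.27% lower at 3 h. At 6 h it was 339 (55.4%) and 408 (64.2%), against 9.27% and 11.2% of all genes. Gdpd3 was at 4.67 at 3 h and 6.03 at 6 h, Rdh16f2 at -4.70 and -5.55, Sdr9c7 at -4.74 and -4.65, and Lyz2 at -2.29 and -1.48, all with adjusted p under 0.05. The arrays did not overlap for Lyz2 at either time, with 93.9 to 139 in SMJ against 406 to 798 at 3 h, and 138 to 301 against 365 to 830 at 6 h. The stress genes divided. Zfand2a read 5928 to 6642 at 3 h and 11891 to 13064 at 6 h in SMJ against 307 to 1076 and 402 to 2948 (3.72 and 3.78), while Atf3 (0.30 and 0.72) and Jun (0.74 and 0.51) no longer passed. Of 18 immediate early genes, 2 were called higher at 3 h and 5 at 6 h, with 1 lower at each time. Of 12 heat shock genes, 4 were higher at 3 h, with a median of 0.72, and all 12 at 6 h, with a median of 1.42. Of 17 cholesterol genes, 11 were lower at 3 h, with a median of -1.29, and 14 at 6 h, with a median of -1.17.

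The change of the difference from 0 h to 6 h was itself called for 292 of all genes (2.12%); without mouse 57 or mouse 58 it was called for 133 or 135 of all genes. Alas2 went from -1.85 at 0 h to 1.41 at 6 h, a change of 3.26 ± 0.44 (adjusted p = 0.000269). Dusp8 went from 3.34 to 1.13 (adjusted p of the change = 0.012); at 6 h SMJ read 251 to 472 and the other strains had reached 71.0 to 297.

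**Figure D5:**
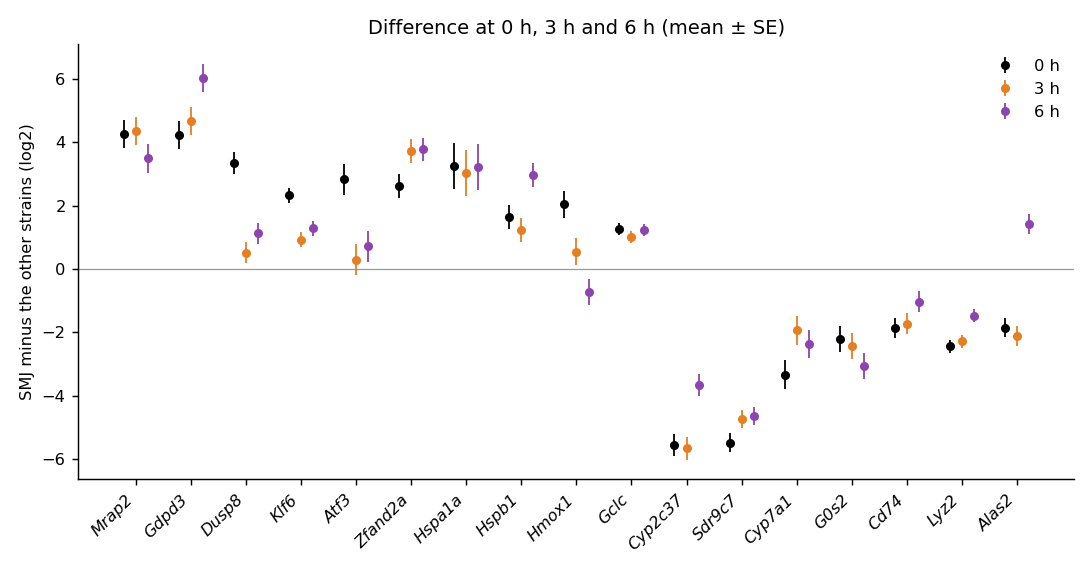
Log2 difference of SMJ from SJL, DBA and C57 averaged, at 0 h, 3 h and 6 h, for 17 genes, with points at the estimate and bars of 1 standard error from limma; the 3 times are different mice. Mrap2, Gdpd3, Zfand2a, Hspa1a and Gclc stay above 0 at all 3 times and Sdr9c7, Cyp7a1 and Lyz2 below it, while Hmox1 and Alas2 change sign.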

How the data were processed

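Biotin-labelled copies of total RNA from 36 livers were measured on Affymetrix arrays, 1 mouse each. The authors deposited MAS5 signals, an intensity on a linear scale for each probe set, per the submitters' processing notes; the version is not given in the sources used here. Each array's mean, trimmed by 2% at each end, was 150, and no further scaling was applied. MAS5 subtracts mismatch probes and is noisy at low signal. No detection calls were used.

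An offset of 2.77, the 10th percentile of all values, was added before log2. Of 45101 probe sets, 64 were controls, 34945 named 1 gene, 932 several and 9160 none. Each of 18193 genes was represented by its probe set of highest mean log2 signal, passing over names with _x_, _s_ or _a_ (able to bind several transcripts) unless there was no other. Testing required signals above the overall median, 30.8, on at least 3 arrays, which left 13802 genes. The 5063 tested probe sets without 1 gene name were counted apart, with 99 higher and 178 lower in SMJ.

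Means of 12 groups (4 strains at 3 times, 3 mice each) were fitted in R 4.3.3 by limma 3.58.1 across 36 arrays, leaving 24 residual degrees of freedom, two-sided moderated tests and Benjamini-Hochberg adjustment over all genes tested at 0.05. The fit was tested on simulated data. The second probe set of a gene was the brightest of its others. Promoter sequences are from RefSeq, GRCm38.p6; the array files name no build.

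The genes named are the 15 largest differences in each direction with adjusted p under 0.05 and all SMJ arrays outside the range of the other 9, up to 4 genes per list by p, and 11 genes of acetaminophen metabolism or reference. The text does not give every gene this rule takes, and 1 of the 30 largest differences is not reported here. Other called list members, and list members named with values only, were chosen after their values were seen. The members and lists were chosen with earlier results of these data known. Mouse numbers differ between all groups and pair no samples. The labels give no batch. Alternatives were the offset, array scaling, filter, probe set choice, limma-trend, the arrays fitted and leaving out each array at 0 h.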

Additional observations from a re-analysis of the deposited data

Results flagged for a closer look

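The difference of SMJ from the other strains changed between 0 h and 6 h for 6 of the named genes, by a limma test of the change itself with Benjamini-Hochberg adjustment over all genes. The values are 6 h minus 0 h on the log2 scale. Alas2, erythroid heme synthesis, changed by 3.26 (adjusted p = 0.000269), from -1.85 to 1.41, and by 3.25 to 3.27 when 1 SMJ array at 0 h was left out. Hmox1 changed by -2.76 (adjusted p = 0.0132), from 2.04 to -0.73, and by -1.62 without mouse 56 (adjusted p = 0.00765). Dusp8 changed by -2.22 (adjusted p = 0.012), from 3.34 to 1.13. Cyp2c37 changed by 1.90 (adjusted p = 0.0428), from -5.57 to -3.67, and by 1.16 without mouse 56, which ended the call (adjusted p = 0.152). Gys2, liver glycogen synthase, changed by -0.84 (adjusted p = 0.0103), from -0.49 to -1.33. Pex11a changed by -0.80 (adjusted p = 0.0371), from -0.96 to -1.76, and was not called without mouse 57 or mouse 58 (adjusted p = 0.113 and 0.141). These genes were named partly for their difference at 0 h, and the same 0 h values enter the change, so a smaller difference at 6 h is favoured by that choice. The causes of these changes were not tested. Groups of 3 were not tested for outlying samples.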

How the results depend on the processing

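The median difference of all genes stayed between -0.04 and 0.03 under every setting run. Across the other settings of offset, scaling, filter, limma-trend, passed-over probe sets and arrays fitted, the higher genes numbered 442 to 776 and the lower 534 to 710. Fitting only the 12 arrays of each time left 278 of 978 genes called at 0 h that pass at 3 h, against 635 of 1248. A filter at the 75th percentile gave 445 genes whose difference changed from 0 h to 6 h, against 292. With the second probe set of each gene, where 6664 genes were tested in place of 13802, 366 genes were higher and 303 lower, 255 and 348 passed again at 3 h and 6 h, 777, 574 and 716 differed from SJL, DBA and C57, and 105 changed from 0 h to 6 h. Requiring all SMJ arrays outside the range of the other 9 left 312 and 313. The direction turned with the second probe set for Hsd17b6 (0.28), Gsr (-0.13), H2-DMa (0.66), Tef (0.67) and Hsd17b13 (-1.94), of which only Hsd17b13 passed. Of the calls that ended under another setting, only those of genes given in the text are listed here. Fitting only the 12 arrays at 0 h ended the calls of Cyp4f13, Ces1d, Chdh, Hmox1, Osgin1, Sod1, H2-Eb1, H2-DMa, Hamp, Orm3, Decr1, Cd36, Adgre1 and Cyp2c70. Besides some of these, testing without a filter on low signals ended those of Psmb9, Hmgcs1, Dhcr7, Crp and Cyp2b10, quantile normalization those of Ngp and Cyp2r1, and passing over only _x_ probe sets those of Bbs10, Evi2a and Hmgcs1. Dividing each array by its 75th percentile ended those of Cd36, Crp and Cyp2c70, and an offset of 16 those of H2-DMa, Orm3 and Sod1.

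Leaving out 1 array at 0 h gave 316 to 624 higher genes and 376 to 606 lower, 440 to 621 and 470 to 720 passing again at 3 h and 6 h, and 97 to 192 with a passing second probe set. It gave 973 to 1456 genes against SJL, 731 to 1258 against DBA and 767 to 1285 against C57, and 133 to 304 changing from 0 h to 6 h. Without SMJ57 and SMJ58, 470 and 487 genes passed again at 6 h and 104 and 97 had a passing second probe set; the cause was not tested. No paired analysis was possible because no mouse number is shared between groups. With 3 arrays per group, and signals of low genes near the offset, differences of dim genes such as Evi2a, Septin10 and Orm3 are imprecise.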
